A study of Mus musculus with 6 samples.

Results

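The genes described here are the receptors and the intracellular mediators of transforming growth factor-beta (TGF-beta): Tgfbr1, Tgfbr2 and Tgfbr3, the transducing Smad1, Smad2, Smad3, Smad4 and Smad5, and the inhibitory Smad6 and Smad7. They were chosen by name: every gene probe in the scanner output whose gene name is one of these symbols was taken, which gave 10 genes and 17 probes out of 36095 gene names and 55681 gene probes. The receptors have 5 of these probes, the transducing Smads 10 and the inhibitory Smads 2. The level of RNA in the heart was measured on 6 one-colour Agilent microarrays. The RNA of all 6 arrays came from hearts of male C57BL/6 mice of 8 weeks whose left anterior descending coronary artery was ligated to cause a myocardial infarction. For 3 arrays the mice received an antagomir against miR-433, a chemically modified antisense oligonucleotide that blocks a microRNA. For the other 3 they received a scrambled control oligonucleotide, in both cases 80 mg/kg into the tail vein on 3 consecutive days. Below, n counts arrays. RNA was taken 21 days after the infarction. The arrays have no uninfarcted heart, so each difference below compares infarcted hearts only, and the labels do not say whether the 3 arrays of a group are 3 separate mice, so the p-values measure the spread between arrays, which may in part be technical.

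TGF-beta binds the type II receptor, which recruits and phosphorylates the type I receptor, and the type I receptor phosphorylates Smad2 and Smad3. Bone morphogenetic proteins (BMPs) act through related receptors on Smad1 and Smad5, and both branches use Smad4 as the common partner that enters the nucleus with them. Smad6 and Smad7 block the receptors or compete for partners and are themselves transcribed in response to the signal. In the infarcted heart the pathway is known for its part in scar formation, where fibroblasts take on a contractile form and lay down collagen.

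The antagomir was directed against miR-433, which has mature sequences from 2 arms. The labels name no arm, so both are given, from RefSeq (GRCm38.p6), 5′ to 3′, with the seed (bases 2 to 8) in capitals. The 3p arm lies at chr12:109591781-109591802 and the 5p arm at chr12:109591729-109591750, both on the plus strand.
mmu-miR-433-3p: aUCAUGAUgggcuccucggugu
mmu-miR-433-5p: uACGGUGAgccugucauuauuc
The 7 letters ATCATGA, which pair with the seed of the 3p arm, were in none of the 17 member probes and in 287 of all 55681 gene probes (0.515%). A probe covers 60 bases of a transcript, so this says nothing about the rest of the transcript. The match to the seed of the 5p arm was not searched for.

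The share of probes above background was similar apart from 1 antagomir array. The arrays were hybridised on 1 slide with 1 scan time, and no gene spot was saturated. Between 55.2% and 58.5% of gene probes were well above background on 5 arrays, against 73.6% on antagomir array 3. Control arrays 1 and 2 lie in the first row of the slide, and control array 3 with all 3 antagomir arrays in the second, so a fit with the row as a block leaves control array 3 as the only control beside antagomir arrays. A level is the log2 processed signal after subtraction of the 75th percentile of that array's gene probes, so 0 stands for that percentile, and a difference is antagomir minus control on that scale. Over gene spots the 75th percentile of the signal was 504.4 to 550.7 on control and 428.3 to 458.4 on antagomir arrays. The scaling therefore raises antagomir levels against control levels. All 10 genes were tested among 22989, each through its brightest probe, and each of those 10 probes was well above background on all 6 arrays, with processed signals from 182 for Smad1 to 11126 for Tgfbr2. Levels of different probes depend on the probe and are not set against each other.

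None of the 10 genes passed limma's test after Benjamini-Hochberg adjustment over all genes (threshold 0.05), against 3 of 22989 genes, or 0.0130%. At an unadjusted limma p under 0.05 there was 1 member, Tgfbr1, against 7.21% of all genes. By their estimates 7 were lower and 3 higher in the antagomir group, with a median difference of -0.18 and a range from -0.63 for Tgfbr1 to 0.29 for Tgfbr3. With each array scaled to its median in place of its 75th percentile all 10 were lower. But that scaling shifts genes at large: their median was 0.09 with the percentile and -0.38 with the median. The median processed signal was 77.81 on antagomir array 3 and 26.24 to 34.84 on the others, so median scaling lowers that array most. Relative to the median of all genes 8 of the 10 lay below it; these scalings shift all genes of an array alike and so cannot differ in that count, which was 7 with quantile scaling and with the authors' deposited table. The groups did not overlap for 4 genes: Tgfbr1, Tgfbr2 and Smad1 were lower on every antagomir array (6.93% of all genes were), and Smad2 was higher on every one (8.78%). In either direction 15.7% of all genes had groups that did not overlap. With 3 arrays against 3, an exact two-sided permutation test of a single gene cannot go below p = 0.1.

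**Figure D1:**
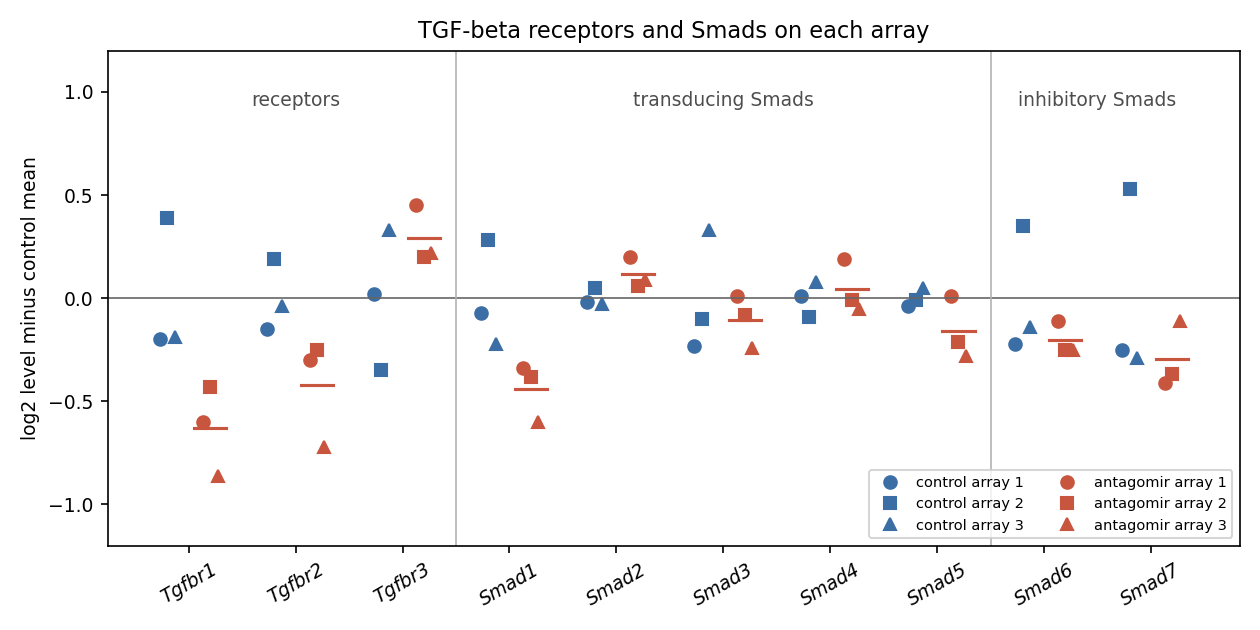
Level of each of the 10 genes on each of the 6 arrays as a log2 difference from the mean of the gene's 3 control arrays; points are arrays, coloured by group, short bars are antagomir means and the line at 0 is the control mean. Tgfbr1, Tgfbr2 and Smad1 lie lower on all 3 antagomir arrays than on any control array, and Tgfbr3, Smad3, Smad4, Smad5, Smad6 and Smad7 overlap.

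Of the receptors, both kinases had lower estimates and the co-receptor a higher one. Tgfbr1, the type I receptor kinase that phosphorylates Smad2 and Smad3, was read by a probe at chr4:47427736-47427795 (mm9, the build of the array design). Control hearts, in the order of arrays 1 to 3 here and throughout, had levels of 1.34, 1.93 and 1.34, and antagomir hearts 0.93, 1.11 and 0.68. The groups did not overlap, and control array 2 stood above the other 2 controls. The mean was 1.54 ± 0.34 (SD, n = 3) in control and 0.91 ± 0.21 (n = 3) in antagomir hearts, a difference of -0.63 (SE 0.22, 95% confidence interval -1.18 to -0.09), or 1.55-fold lower. The unadjusted limma p was 0.0298 and the adjusted p 0.672. An unadjusted p under 0.05 in the lower direction was reached by 4.16% of all genes, and 13.4% of all genes had a larger absolute difference. In whole-heart RNA, fewer cells of a type that carries a transcript and less of it per cell cannot be told apart.

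Tgfbr2, the type II kinase that binds the ligand, was read by a probe at chr9:115997155-115997214. It was at 4.27, 4.61 and 4.38 in control hearts and at 4.12, 4.17 and 3.70 in antagomir hearts. The groups did not overlap, and antagomir array 3 was the lowest by a wide margin. The SD was 0.17 in control and 0.26 in antagomir hearts (n = 3 each), and the means differed by -0.42 (SE 0.19, interval -0.88 to 0.04, limma adjusted p = 0.691), or 1.34-fold lower. Without antagomir array 3 the difference was -0.27.

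Tgfbr3, or betaglycan, presents ligand to the signalling receptors and has no kinase of its own. Its probe at chr5:107535818-107535877 gave 3.36, 2.99 and 3.68 on the control arrays and 3.79, 3.55 and 3.56 on the antagomir arrays. The groups overlapped, because control array 3 lay above antagomir arrays 2 and 3, and control array 2 was the lowest of all 6. The difference was 0.29 (SE 0.21, interval -0.22 to 0.81, limma adjusted p = 0.692), and it was -0.18 with median scaling and -0.04 when the row on the slide was fitted as a block.

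The kinases and the co-receptor were also set against each other within each array, as each gene's distance from its own control mean; this pair was chosen after the values were seen and was not tested. Tgfbr1 minus Tgfbr3 was -0.22, 0.75 and -0.53 on the control arrays and -1.06, -0.64 and -1.08 on the antagomir arrays. All antagomir arrays lay below all control arrays, with a mean of -0.92. Tgfbr2 minus Tgfbr3 was -0.17, 0.54 and -0.37 against -0.76, -0.45 and -0.94, also without overlap, with a mean of -0.72.

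Among the transducing Smads 3 had lower and 2 higher estimates. Smad1, which carries the BMP signal, was read by a probe at chr8:81863015-81863074. It was at -0.59, -0.24 and -0.74 in control hearts and at -0.86, -0.90 and -1.12 in antagomir hearts. Every antagomir array was below every control array, although control array 3 and antagomir array 1 were close. The means were -0.52 ± 0.26 and -0.96 ± 0.14 (SD, n = 3 each). They differed by -0.44 (SE 0.18, interval -0.88 to 0.00, limma adjusted p = 0.691), or 1.35-fold lower. Fitted with a block for the row, the difference was -0.22.

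Smad5, the other transducer of BMP signals among the members, was at 3.85, 3.87 and 3.94 in control and 3.90, 3.68 and 3.61 in antagomir hearts (probe at chr13:56843578-56843637). Antagomir arrays 2 and 3 were the lowest, and antagomir array 1 lay among the controls. The difference was -0.16 (SE 0.14, interval -0.50 to 0.18, limma adjusted p = 0.714). Smad1 minus Smad5, as distances from the control means, was -0.03, 0.30 and -0.27 on the control arrays and -0.35, -0.17 and -0.32 on the antagomir arrays. These overlapped, so the larger estimate of Smad1 did not stand apart from that of Smad5.

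Smad2 and Smad3, the transducers of TGF-beta itself, had small estimates of opposite sign. Smad2 was at 0.11, 0.19 and 0.10 in control hearts and 0.33, 0.19 and 0.22 in antagomir hearts (probe at chr18:76464903-76464962). Control array 2 and antagomir array 2 were equal to 2 decimals, so the gap between the groups was close to nothing. The difference was 0.12 (SE 0.12, interval -0.19 to 0.42, limma adjusted p = 0.749) and was -0.35 with median scaling. Smad3 was at 1.74, 1.87 and 2.30 in control and 1.98, 1.89 and 1.74 in antagomir hearts (probe at chr9:63494574-63494633). Its highest value was on control array 3, and the groups overlapped. The difference was -0.10 (SE 0.19, interval -0.56 to 0.36, limma adjusted p = 0.852), and it was 0.06 without control array 3 and 0.07 with array weights.

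Smad4, the partner that both branches share, had the smallest estimate. It was at 3.78, 3.69 and 3.85 in control hearts and 3.97, 3.77 and 3.73 in antagomir hearts (probe at chr18:73798670-73798729), with overlapping groups. The difference of 0.05 (SE 0.14, interval -0.29 to 0.38, limma adjusted p = 0.908) changed sign under 8 alternatives, its further probe included, down to -0.42 with median scaling.

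The inhibitory Smads both had lower estimates. Smad6, which acts mainly on the BMP branch, was at 0.52, 1.09 and 0.60 in control hearts and 0.62, 0.49 and 0.48 in antagomir hearts (probe at chr9:63800980-63801039). Control array 2 stood far above the other 5 arrays, which lay close together. The difference was -0.20 (SE 0.19, interval -0.67 to 0.26, limma adjusted p = 0.723), and it was -0.03 without control array 2 and 0.01 with array weights.

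Smad7, which recruits ubiquitin ligases to the TGF-beta receptor and is one of the first genes that the signal switches on, followed the same arrays. It was at 0.31, 1.08 and 0.27 in control and at 0.15, 0.18 and 0.44 in antagomir hearts (probe at chr18:75555371-75555430). Control array 2 was again far above the rest, and the groups overlapped. The means of 0.55 ± 0.46 and 0.26 ± 0.16 (SD, n = 3 each) differed by -0.30 (SE 0.26, interval -0.93 to 0.33, limma adjusted p = 0.712), and by -0.03 without control array 2.

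Taken as classes, signal transducers and inhibitors did not separate. The median difference was -0.10 for the 5 transducing Smads and -0.25 for the 2 inhibitory Smads, so the first exceeded the second by 0.15; this turned to -0.12 without control array 2 and to -0.17 under the block for the row. The mean distance of the transducing Smads from their control means was -0.07, 0.03 and 0.04 on the control arrays and 0.02, -0.12 and -0.21 on the antagomir arrays. That of the inhibitory Smads was -0.23, 0.44 and -0.21 against -0.26, -0.31 and -0.18. The balance of these means, transducing minus inhibitory, was 0.16, -0.41 and 0.25 in control hearts and 0.28, 0.18 and -0.03 in antagomir hearts. The groups overlapped, and the lowest value of all belonged to control array 2. The corresponding mean for the 3 receptors was -0.11, 0.08 and 0.03 on the control arrays and -0.15, -0.16 and -0.45 on the antagomir arrays, which did not overlap. The median of all genes tested stood at 0.01, -0.05 and 0.05 on the control arrays and 0.08, 0.03 and 0.11 on the antagomir arrays. As a single pair, Smad1 minus Smad6 was 0.15, -0.07 and -0.08 on the control arrays. On the antagomir arrays it was -0.22, -0.13 and -0.34, without overlap but with a narrow gap. Smad3 minus Smad7 overlapped, and neither pair was tested.

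The same 2 arrays held most of the extreme values. Control array 2 was the highest of the 6 for Tgfbr1, Tgfbr2, Smad1, Smad6 and Smad7 and the lowest for Tgfbr3 and Smad4. Antagomir array 3 was the lowest for 6 genes: Tgfbr1, Tgfbr2, Smad1, Smad3, Smad5 and Smad6. Without control array 2 no member had an unadjusted limma p under 0.05; the difference of Tgfbr1 was then -0.43, that of Tgfbr2 -0.33 and that of Smad1 -0.30. Without antagomir array 3 that count was 0 as well, and the same 3 genes were at -0.52, -0.27 and -0.36. The count was also 0 without antagomir array 1 and under the block for the row, and it was 2 without control array 3.

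**Figure D2:**
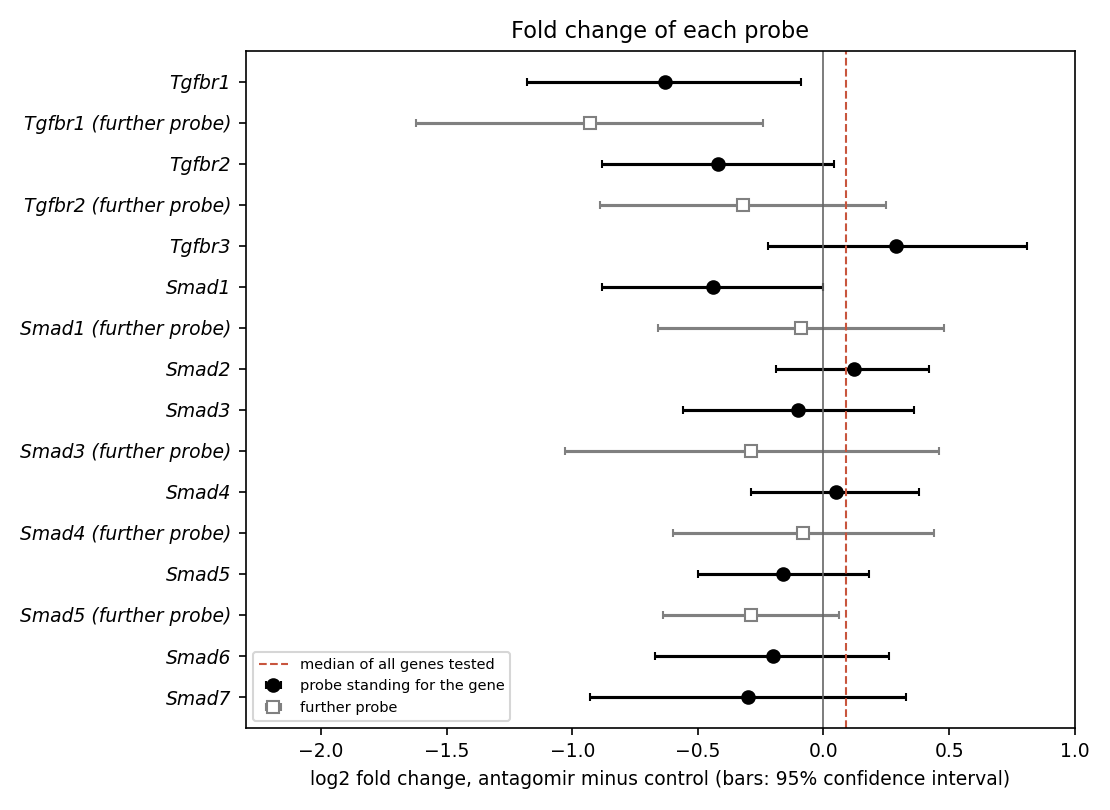
Difference of each member probe that passed the background filter (log2, antagomir minus control) with its 95% confidence interval from limma; filled points stand for the gene, open points are further probes, and the dashed line is the median of all genes tested (0.09). The interval of the probe that stands for Tgfbr1 lies below 0, and those of Tgfbr2, Tgfbr3 and all Smads reach or cross it; the further probes of Tgfbr1 and Smad3 are drawn at measured values, though 2 and 3 of their antagomir arrays were not well above background.

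Further probes read the same arrays and are no independent samples. Of the 10 genes, 4 have 1 probe, 5 have 2 and Smad1 has 3. Of the 7 further probes 6 passed the background filter. Those of Tgfbr1 and Smad3 passed mainly through the control arrays, which favours a lower estimate in the antagomir group, so theirs are descriptions and support nothing. For Tgfbr1 the further probe lies 2790 bases away at chr4:47424946-47425005 and was well above background on 3 control arrays and 1 antagomir array. Its measured level was -3.19, -2.65 and -3.50 in control and -4.42, -3.90 and -3.82 in antagomir hearts. The groups did not overlap, and the measured means differed by -0.93, with 2 of the 3 antagomir arrays not well above background. For Tgfbr2 the further probe differed by -0.32 (SE 0.23, interval -0.89 to 0.25), with overlapping groups. Smad4 was at -0.08 (SE 0.21, interval -0.60 to 0.44) on its further probe, where the probe that stands for it gave 0.05.

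The further probe of Smad5 differed by -0.29 (SE 0.14, interval -0.64 to 0.06), with groups that did not overlap. That of Smad3 was well above background on 3 control arrays and no antagomir array, with measured levels of -4.51, -4.01 and -3.95 against -4.63, -4.83 and -3.88. These groups overlapped, antagomir array 3 being the highest of the 6. Smad1 has a probe at chr8:81880234-81880293, 17219 bases from the one that stands for it, with processed signals of 53.8, 69.6 and 56.4 in control and 42.6, 37.0 and 68.2 in antagomir hearts. Antagomir array 3, the array with most probes above background, was high here. The difference was -0.09 (SE 0.23, interval -0.66 to 0.48), and -0.30 without that array. The last Smad1 probe, at chr8:81865492-81865551, was above background on 2 control arrays only and was not tested.

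The further probes of Tgfbr2 (chr9:115999496-115999555) and Smad1 (chr8:81880234-81880293) are shown because they read another stretch of genes whose groups did not overlap on the probe that stands for them. Both are given as the array files list them, 5′ to 3′, on the minus strand of mm9. Capitals in the Tgfbr2 probe mark its last 3 bases, TAG, the letters of a stop codon; the reading frame was not analysed here, and the Smad1 probe has no capitals.
Tgfbr2 probe: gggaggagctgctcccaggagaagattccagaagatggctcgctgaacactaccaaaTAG
Smad1 probe: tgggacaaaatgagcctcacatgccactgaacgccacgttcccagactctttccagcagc

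Of the member pairs, Tgfbr1 and Smad1 had the highest Pearson correlation over the 6 arrays, 0.97. Of the 22989 genes tested, 1051 had an r above 0.9 with Tgfbr1 and 804 with Smad1, and genes at 0.97 or above were not counted. The value of 0.97 and the following coefficients describe likeness over both groups at once. The arrays share a scaling and a slide, so no test was made. Tgfbr1 and Tgfbr2 were at 0.95, Smad6 and Smad7 at 0.88, and Tgfbr3 ran opposite to Smad7 at -0.89. The genes nearest to Tgfbr1 among all tested were Ccdc34 (0.999), Pros1 (0.997) and Fscn1 (0.997), with differences of -0.62, -0.49 and -0.59. Those nearest to Smad1 were an intergenic non-coding locus (0.996), Cenpt (0.995) and Gabpb2 (0.994), and those nearest to Smad7 were Cntrl (0.994), Folr1 (0.994) and a transcript known by an Ensembl identifier (0.988).

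The promoters of Tgfbr1 and Smad1, both lower on every antagomir array, and that of Smad6 are shown with 1 kind of motif marked in each. RefSeq promoters (GRCm38.p6, from 250 bases before to 50 after the start) matched 6 of the 10 genes with 9 starts: Tgfbr1, Tgfbr2, Smad1, Smad3, Smad5 and Smad6. None was used for Tgfbr3, Smad2, Smad4 and Smad7. Capitals mark the GC box GGGCGG on the given strand in Tgfbr1 (chr4:47352972-47353271, plus strand) and Smad1 (chr8:79399379-79399678, minus strand), and the palindromic Smad-binding element GTCTAGAC in Smad6 (chr9:64022010-64022309, minus strand).
Tgfbr1 promoter: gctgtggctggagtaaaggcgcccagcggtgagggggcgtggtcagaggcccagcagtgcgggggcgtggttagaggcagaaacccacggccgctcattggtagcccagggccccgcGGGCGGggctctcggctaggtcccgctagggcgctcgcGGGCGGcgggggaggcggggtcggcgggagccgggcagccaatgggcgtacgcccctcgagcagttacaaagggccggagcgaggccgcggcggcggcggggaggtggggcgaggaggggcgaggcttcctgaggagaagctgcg
Smad1 promoter: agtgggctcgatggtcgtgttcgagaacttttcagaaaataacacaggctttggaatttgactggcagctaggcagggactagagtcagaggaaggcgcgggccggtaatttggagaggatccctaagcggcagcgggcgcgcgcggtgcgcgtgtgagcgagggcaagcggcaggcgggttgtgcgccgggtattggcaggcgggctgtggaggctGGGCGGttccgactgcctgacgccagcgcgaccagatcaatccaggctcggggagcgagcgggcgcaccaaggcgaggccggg
Smad6 promoter: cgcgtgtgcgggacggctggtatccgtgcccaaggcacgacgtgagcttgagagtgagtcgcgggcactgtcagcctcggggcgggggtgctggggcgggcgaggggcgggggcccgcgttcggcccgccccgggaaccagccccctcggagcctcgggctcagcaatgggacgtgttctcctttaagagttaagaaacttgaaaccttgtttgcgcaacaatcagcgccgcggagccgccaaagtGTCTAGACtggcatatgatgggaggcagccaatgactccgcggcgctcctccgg
Searched on both strands, GGGCGG was in 7 of the members' 9 promoters and in 35.7% of all 32851 promoters, GTCTAGAC in 1 and 0.213%, and CAGACA, a longer form of the core that Smads bind, in 1 and 21.0%. The AP-1 site TGANTCA (7.81% of all promoters) and the TATAAA box (13.6%) were in none of the 9. The promoters shown have a GC content of 74.7%, 65.0% and 66.3%, against a median of 52.7% over all promoters. Tgfbr2 was also lower on every antagomir array, but its promoter (59.0% GC) had none of the motifs searched and is not shown. The other Tgfbr1 start (chr4:47385966-47386265, 52.0% GC), also not shown, had 1 CAGACA and no GGGCGG. Smad3, Smad5 and Smad6, whose groups overlapped, had GGGCGG as well. These matches describe the letters in these windows and nothing else.

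Genes of ligands and of latent binding proteins, taken as 1 list, mostly had lower estimates, but Tgfb1 did not. Besides the Tgfb and Ltbp genes the list holds Inhba, Inhbb, Lrrc32 and Nrros, and all 11 of its genes were tested. Their median was -0.66 against 0.09 over all genes, 9 had lower and 2 higher estimates, and none passed after adjustment. Of the 11, 7 had an unadjusted limma p under 0.05, all lower (4.16% of all genes), among them Inhba (-1.55) and Inhbb (-0.63). The smallest p belonged to Ltbp2, a matrix protein of the latent TGF-beta binding family, at 4.73, 6.74 and 4.32 in control and -0.63, 1.67 and 0.68 in antagomir hearts. Its groups lay far apart, with a difference of -4.69 (SE 0.82, limma adjusted p = 0.517). Tgfb3, one of the ligands, differed by -1.58 (SE 0.34, adjusted p = 0.545) and Ltbp3, which anchors the latent ligand in the matrix, by -1.08 (SE 0.26, adjusted p = 0.556), both without overlap. Of the other TGF-beta ligands, Tgfb2 differed by -1.45 (SE 0.48, limma adjusted p = 0.651) without overlap. Tgfb1 differed by 0.03 (SE 0.16, limma adjusted p = 0.940), with overlapping groups. The count of 7 was 4 without antagomir array 3 and 2 under the block for the row, and the median was -0.44 without control array 2.

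The other receptors of the superfamily, listed with Smad9, had a median near that of all genes. Of 12 listed, 10 were tested (Acvr1c and Bmpr1b were not); their median was -0.04, with 7 below 0 and 3 above, but 4 below and 6 above without control array 3 and 5 on each side without control array 2 or antagomir array 2. Smad9, a further BMP transducer, differed by 0.66 (SE 0.24, limma adjusted p = 0.674) and Acvr1, a BMP type I receptor, by -0.48 (SE 0.17, adjusted p = 0.674). Acvrl1, a type I receptor of endothelial cells, came next with -0.33 (SE 0.21, limma adjusted p = 0.691) and overlapping groups. The first pair are the only 2 with an unadjusted p under 0.05, and without control array 2 or 3 there was none. Of 22 cofactors, repressors and regulators, 21 were tested (Bambi was not). Their median was 0.04, with 10 below 0 and 11 above (20 and 1 with median scaling), and 4 had an unadjusted limma p under 0.05 (7.21% of all genes), or 2 without control array 2 or antagomir array 1. Tgif2, a repressor that binds Smads, was above background on 2 control and 3 antagomir arrays and was left out by the filter that asks for all 6. Its measured difference was 1.16 (SE 0.24, limma adjusted p = 0.545). Dab2, an adaptor that links receptors to Smads, differed by -0.85 (SE 0.25, adjusted p = 0.612), and Pmepa1, an inhibitor that the signal itself induces, by -1.14 (SE 0.39, adjusted p = 0.662).

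Genes that respond to Smads had the lowest median of the pathway lists here, though not under the block for the row. There the ligands and latent binding proteins were at -0.62 and the targets at -0.59. Without a block the median of the targets was -1.05. Of 18 tested, 15 had lower and 3 higher estimates. An unadjusted limma p under 0.05 with a lower estimate was found for 8 (4.16% of all genes), and none passed after adjustment. The list was assembled with results of these data known, and 4 of its genes are also fibroblast or smooth muscle markers here. Col3a1, the fibrillar collagen of early scar, was at 7.13, 7.44 and 6.57 in control and 3.54, 4.81 and 2.82 in antagomir hearts. All antagomir arrays were far below all control arrays, and the difference was -3.33 (SE 0.53, limma adjusted p = 0.497). The collagen chains Col1a1 and Col1a2 differed by -2.82 (SE 0.50, adjusted p = 0.517) and -2.17 (SE 0.37, adjusted p = 0.499). With median scaling 6 of the 18 passed after adjustment, beside 199 of all genes, while no member did. That scaling lowers antagomir array 3 against the other arrays, and 87.0% of all genes were lower under it. Without control array 2 the median of the targets was -0.66. The count of 8 was 5 without antagomir array 3 and 5 under the block for the row.

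**Figure D3:**
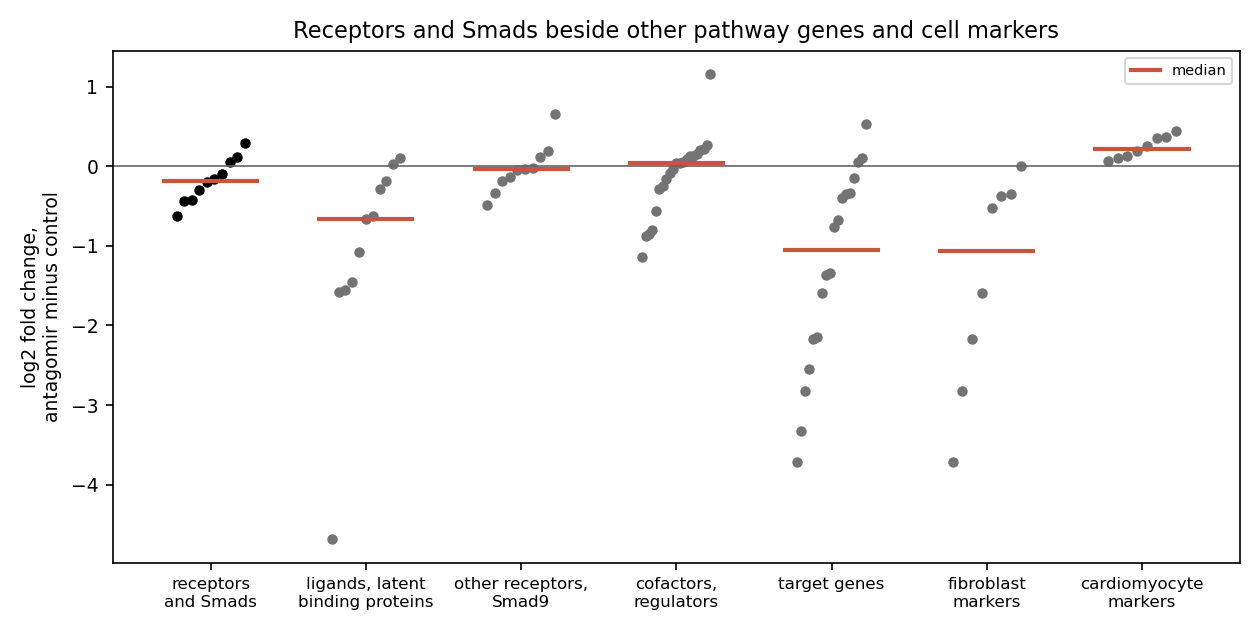
Difference of every tested gene (log2, antagomir minus control) by role in the pathway, with the receptors and Smads first; points are genes and bars are list medians, with fibroblast and cardiomyocyte markers at the right. Targets (median -1.05) and ligands with latent binding proteins (-0.66) reach far lower than the receptors and Smads, which lie between -0.63 and 0.29.

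Markers of the cells in the heart differed between the groups as well. The 8 fibroblast markers ranged from -3.71 for Postn to 0.00 for Dcn. Postn, Col1a1 (-2.82), Col1a2 (-2.17) and Lum (-1.59) had groups that did not overlap. Tcf21 (-0.53), Ddr2 (-0.37), Pdgfra (-0.35) and Dcn overlapped. The median of -1.06 lies between these sets and describes neither. Postn, Col1a1 and Col1a2 are also on the list of target genes. The summed level of the 8 fibroblast markers (linear units of the 75th percentile) was 653 to 808 in control and 379 to 546 in antagomir hearts. The summed level of 8 cardiomyocyte markers was 2537 to 2966 in control and 2999 to 3272 in antagomir hearts. All 8 had higher estimates, with a median of 0.22, but the direction came with the scaling: with quantile scaling 5 were lower and 3 higher (median -0.01), with normexp likewise (-0.02), 4 each way in the authors' deposited table (-0.01), and with median scaling all 8 were lower (-0.25). Without control array 2 the median was 0.10. On control array 2, where Tgfbr1, Tgfbr2, Smad1, Smad6 and Smad7 were highest, the fibroblast sum was the highest and the cardiomyocyte sum the lowest of the 6. On antagomir array 3, where 6 members were lowest, the fibroblast sum was the lowest. The part of these markers in the differences of the members was not tested.

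Endothelial marker sums were also apart, at 131 to 132 in control and 118 to 128 in antagomir hearts. A sum weighs bright probes most, and Egfl7, the brightest here, had overlapping groups. The mean distance of the 8 endothelial markers from their control means overlapped too, at -0.01, -0.05 and 0.06 against 0.03, -0.32 and -0.27. Of these 8 markers 6 had lower estimates, with a median of -0.09 (-0.19 without antagomir array 1); without antagomir array 2, 4 were lower and 4 higher. Smooth muscle and pericyte marker sums overlapped, at 141 to 183 against 107 to 143, with 6 of 8 lower and a median of -0.50 (-0.31 without control array 2). Their mean distances from the control means did not overlap, at -0.04, 0.24 and -0.20 against -0.43, -0.67 and -0.33. Macrophage marker sums were 62.9 to 65.5 against 34.6 to 97.5, with 7 of 8 lower and a median of -0.36, but 4 lower and 4 higher with a median of 0.00 without antagomir array 3, and a median of -0.62 without antagomir array 2. Of the lymphocyte markers 7 of 8 were tested (Cd8a was not), and 3 were above background on all 6 arrays, each with a higher estimate (median 0.66). Over the 7 the median was 0.08, with 3 lower and 4 higher, and it was 0.50 without antagomir array 1 and -0.25 without antagomir array 2. Their sum was 4.15 to 4.79 in control hearts and 17.9 on antagomir array 2 alone, against 4.65 and 5.35 on the others. The part of these cells in the members' differences was not tested.

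The differences of Tgfbr1, Tgfbr2, Smad1 and Smad5 kept their sign under every setting run, and those of the other members except Smad7 did not. Much of this was fixed in advance. The groups of Tgfbr1, Tgfbr2 and Smad1 did not overlap, so leaving out 1 array could not change their sign. Dropping the filter, the stricter filter and a block for the replicate number left all these estimates as they were. The kept signs are thus a description and no support. Over the settings, further probes included, Tgfbr1 ranged from -1.10 to -0.43, Tgfbr2 from -0.90 to -0.25, Smad1 from -0.91 to -0.09 and Smad5 from -0.63 to -0.06. Smad7 was negative throughout, yet came as near to 0 as -0.01. Tgfbr3 ranged from -0.18 to 0.46, Smad2 from -0.35 to 0.18, Smad3 from -0.57 to 0.07, Smad4 from -0.42 to 0.10 and Smad6 from -0.68 to 0.01. The lower ends of these ranges belong to median scaling, under which 87.0% of all genes were lower, against 37.4% in the scaling used here and 54.2% with quantile scaling.

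**Figure D4:**
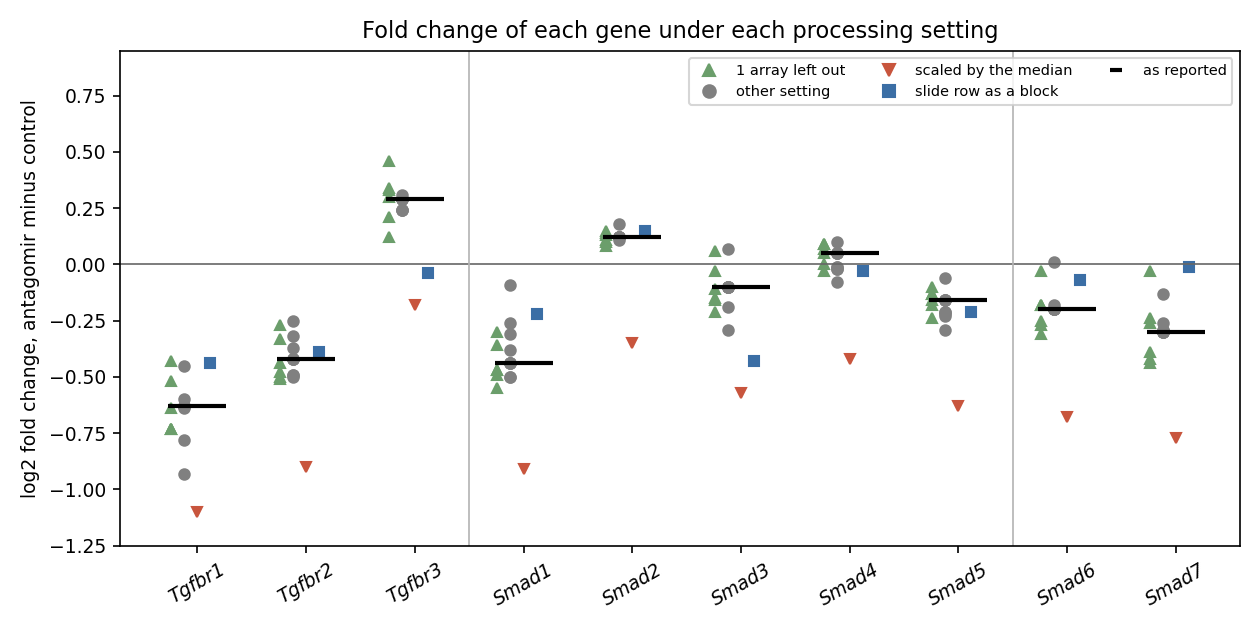
Difference of each member (log2, antagomir minus control) under each processing setting; symbols are settings, including those that leave out 1 array, and the wide bar is the value reported in the text. Tgfbr1 lies between -1.10 and -0.43 under all of them, and Smad4 between -0.42 and 0.10, on both sides of 0.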

How the data were processed

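Levels were taken from 6 scanner files of 1-colour Agilent arrays, scanned and extracted by Agilent Feature Extraction, version 10.7.1.1 per the submitters' processing notes. The deposited intensity is the processed signal of each spot, background-subtracted per the file headers. The deposited table of log2 normalized values was used as an alternative only. Its 6 columns, each sorted, lay within 0.116 log2 units of each other, so they share nearly the same distribution. Its normalization is not given in the sources used here. Deposited columns of other kinds (flags, gene names, positions) served as filters and labels. Array depth has no read count, so the number of arrays, 3 a group, limits the precision.

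Control spots and spots flagged as outliers (154 to 233 an array) were left out, spots of a probe were averaged, and log2 signals were centred on each array's 75th percentile over gene probes. A probe was kept if it was well above background on 3 or more arrays (31711 of 55681), and the probe with the highest mean stood for its gene. Gene names were updated through the RefSeq table by accession (26582 probes), symbol (2602) or synonym (492), and 26005 kept the array's name. Differences were fitted with limma 3.58.1 in R 4.3.3 (lmFit and eBayes, no covariates, two-sided, Benjamini-Hochberg over 22989 genes); intervals are 95%. The fit was tested on simulated data. Preparation used pandas 2.3.3 and numpy 2.4.6 and plots matplotlib 3.10.9, all under Python 3.11.15.

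Every member and every probe of it is named, with the 3 genes of smallest unadjusted p in each pathway list and the 3 genes most correlated with the member of smallest p among receptors, transducing and inhibitory Smads. Tgfb1 and Tgfb2 were added beside Tgfb3. The members and all gene lists were chosen with earlier results of these data known. Alternatives changed background correction, scaling, filter, probe choice, the fit, blocks and arrays; the medians of the pathway lists under them were added after the data were seen. Positions of probes are as the array design gives them, in mm9; the exon or untranslated region they lie in was not analysed here.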

Additional observations from a re-analysis of the deposited data

How the results depend on the processing

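No member passed the adjusted limma test under any of the 18 alternatives. In the 17 fitted by gene the smallest adjusted p was 0.360 to 1.00, and at an unadjusted p under 0.05 there were 0 to 2 members. The number of all genes called was 3, and it was 199 with median scaling, 8 with array weights, 6 with every probe by itself, 2 with the mean of a gene's probes, 1 with quantile scaling, the authors' deposited table or no filter, and 0 with normexp and quantile scaling, the stricter filter or a block for the slide row; leaving out 1 array gave 0 to 3. Median scaling moved the medians to -0.90 for the receptors, -0.57 for the transducing and -0.72 for the inhibitory Smads, and array weights moved the transducing Smads to 0.07. Leaving out 1 array gave -0.51 to -0.27 for the receptors, -0.18 to 0.06 for the transducing Smads, -0.37 to -0.03 for the inhibitory Smads and -0.12 to 0.42 for transducing minus inhibitory. Signs reversed for Smad4 (-0.02 with normexp, -0.01 with quantile scaling and with the authors' deposited table, -0.42 with median scaling, -0.02 with the mean of its probes, -0.03 with a block for the slide row, -0.03 to 0.09 when 1 array was left out, -0.08 on its further probe), Tgfbr3 (-0.18 with median scaling, -0.04 with the slide row), Smad2 (-0.35 with median scaling), Smad3 (0.07 with array weights, and -0.21 to 0.06 when 1 array was left out) and Smad6 (0.01 with array weights). The cause of these changes was not tested. All genes were lower in 37.4% of cases, 54.2% with quantile scaling, 52.7% with normexp, 87.0% with median scaling, 26.4% with no filter and 44.7% with a block for the slide row.

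With the replicate number as a block, 0 genes were called against 3 and the smallest adjusted p of a member was 0.415; genes at an unadjusted p under 0.05 numbered 2271 against 1658. The deviations of arrays with the same number correlated at 0.222, 0.142 and -0.049. Control arrays 1 and 2 were nearest to the antagomir array of their own number, and control array 3 to antagomir array 1. Whether the numbers mark pairs was not tested. The array weights were estimated without full convergence. Arrays give signal over background in place of depth, and 1 of the 17 member probes, of Smad1, was too dim to test.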

Other observations

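The authors' deposited table has 3 more probes that carry a member's symbol while the scanner files name them otherwise. The one for Smad4, at chr18:73797826-73797885 (mm9), had processed signals of 206, 177 and 191 in control and 195, 155 and 223 in antagomir hearts, with overlapping groups. Both for Tgfbr1 were dim: that at chr4:47395833-47395892 was well above background on 1 control array, and that at chr4:47374114-47374173 on none of the 6.

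The genes that passed the adjusted limma test over all genes were Defa-ps1, at 5.55 (SE 0.20, adjusted p = 0.00293), Gngt1, at 4.18 (SE 0.29, adjusted p = 0.0496), and an intergenic locus on chromosome 6, at 4.27 (SE 0.26, adjusted p = 0.0349). None of them is a receptor or a Smad.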
